A study of Mus musculus with 4 samples.

Results

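The chemokines that ECs can make were followed here as a set of 10 genes, chosen by name: Cxcl9, Cxcl10, Cxcl11, Ccl5, Ccl2, Ccl7, Cxcl1, Cxcl12, Cxcl16 and Cx3cl1. All 10 were among the 24421 genes of the count tables, and 9 of them had at least 1 listed exonic or untranslated region (UTR) site in the table of RNA editing sites. The choice used no measured value as a criterion. Most were lowly counted, so that 3 members could be tested in the counts and 4 in the read depth at listed sites.

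The study asked how loss of ADAR1, the enzyme that converts adenosine to inosine in double-stranded RNA, alters gene expression and RNA editing in ECs. ECs were isolated from the lungs of 2 male C57/BL6 inducible ADAR1 knockout (i-KO) mice, 2 weeks old and from separate litters, with an antibody to ICAM-2, and were cultured. From each mouse, cells given 4-OH-tamoxifen (TM) to delete the floxed ADAR1 gene and nontreated cells (CON) were sequenced, giving a CON and a TM library for each mouse (EC1 and EC2), that is n = 2 libraries per group. The labels call the model EC-specific. Values are given for EC1 first and EC2 second throughout. CON cells carried the same inducible alleles as TM cells, and no library of TM-treated cells without the floxed gene was analysed here, so the effect of TM itself and that of the deletion cannot be told apart.

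Chemokines are small secreted or membrane-bound proteins that steer leukocytes through G protein-coupled receptors, and the endothelium displays them at the vessel wall, where circulating cells stop and leave the blood. Cxcl9, Cxcl10 and Cxcl11 bind the receptor CXCR3 on activated T and NK cells and are classical interferon targets, as is Ccl5. Ccl2 and Ccl7 recruit monocytes through CCR2 and Cxcl1 recruits neutrophils through CXCR2, and these genes answer strongly to NF-kB. Cxcl16 and Cx3cl1 are made as membrane-anchored proteins on a mucin stalk. Cxcl12 is the homeostatic ligand of CXCR4.

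The promoters are shown first, because the classes differ by the factors known to drive them. RefSeq promoters (GRCm38.p6) were matched for 5 of the 10 members, and the 250 bases upstream of the start are printed for an interferon-driven pair, an NF-kB-driven gene and the homeostatic gene, read 5′ to 3′ on the strand of the gene. The windows are chr5:92348890-92349139 (minus strand) for Cxcl10, chr5:92328080-92328329 (minus strand) for Cxcl9, chr5:90890995-90891244 (plus strand) for Cxcl1 and chr6:117168285-117168534 (plus strand) for Cxcl12. Capitals mark matches, on either strand, to 3 motifs: the core of the interferon-stimulated response element (ISRE, searched as GAAA, any 2 bases and GAAA again), the gamma-activated site (GAS, searched as TTCNNNGAA) and the kappaB consensus.
Cxcl10: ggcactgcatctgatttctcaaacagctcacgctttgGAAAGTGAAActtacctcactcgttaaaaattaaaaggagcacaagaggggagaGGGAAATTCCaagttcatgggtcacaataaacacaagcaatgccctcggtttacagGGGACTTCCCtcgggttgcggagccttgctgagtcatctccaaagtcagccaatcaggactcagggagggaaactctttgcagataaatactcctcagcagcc
Cxcl9: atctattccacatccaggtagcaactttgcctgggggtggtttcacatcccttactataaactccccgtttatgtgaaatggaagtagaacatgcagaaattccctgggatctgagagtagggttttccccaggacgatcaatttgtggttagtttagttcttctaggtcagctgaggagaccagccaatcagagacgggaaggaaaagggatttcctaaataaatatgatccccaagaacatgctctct
Cxcl1: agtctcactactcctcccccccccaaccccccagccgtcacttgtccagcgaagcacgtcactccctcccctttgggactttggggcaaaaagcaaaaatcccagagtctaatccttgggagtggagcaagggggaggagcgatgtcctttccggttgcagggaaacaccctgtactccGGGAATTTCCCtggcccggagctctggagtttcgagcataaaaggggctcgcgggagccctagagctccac
Cxcl12: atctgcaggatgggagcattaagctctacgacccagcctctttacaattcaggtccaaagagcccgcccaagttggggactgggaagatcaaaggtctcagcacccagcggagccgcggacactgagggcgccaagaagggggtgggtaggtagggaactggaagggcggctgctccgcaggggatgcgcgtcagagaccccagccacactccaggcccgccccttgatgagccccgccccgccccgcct
The Cxcl10 window held 1 ISRE core, from base -213 to -204 relative to the start, and 2 kappaB matches, from -159 to -150 and from -103 to -94. The Cxcl1 window held a kappaB match on each strand, the pair overlapping from -71 to -61. The windows of Cxcl9, Cxcl12 and Cx3cl1 held none of these letters. With kappaB matches in Cxcl10 and no match in Cxcl9, the letters searched did not separate the classes in these windows. Among all 32851 RefSeq promoter windows of the same length, 2.98% held the ISRE core, 7.02% the GAS and 3.90% the kappaB consensus.

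Some facts about the readouts bear on every value. The count tables assigned 1095488 to 1778732 reads to genes, 0.823% to 0.858% of the 131796753 to 207323870 reads in each table, and put 92.8% to 93.9% in the class that overlaps no feature. The library kit keeps the strand and the study's methods state default settings for all tools, which for the counting program means that only reads on the strand of a gene are counted. The first reads of such a kit come from the strand opposite to the transcript, so the counts may hold mainly reads from the other strand and may not measure the transcript itself. This was not tested, and it holds for every count, CPM and count fold below. The site table lists 1205261 positions with reads, altered reads and rate per library, and all of its 1530145 position-by-library entries with reads held at least 1 altered read. A position without an entry therefore has no recorded depth, which is not the same as a depth of 0. Depth here is the median number of reads per base over the listed exonic and UTR sites of a gene in a library, and scaled depth is that value per 100000000 reads of the count table. Among the members, only Ccl2 had such positions listed in both libraries of a mouse. The depth folds of the others compare different positions. Both readouts come from the same libraries and are not independent. In bulk RNA, a change in the number of cells that make a transcript and in the RNA per cell cannot be told apart.

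The targeted gene checked the labels. Adar had a median depth of 145 reads at 5 listed sites in exons 12 to 15 of EC1 CON and 167 at 2 sites of EC2 CON, near the depth of exons 1 to 11 (152.5 and 176). In EC1 TM no site was listed in exons 12 to 15 while exons 1 to 11 reached 664, and in EC2 TM the values were 55 at 3 sites and 1001.5. All 10 endothelial markers, Pecam1 and Cdh5 among them, had listed sites in every library. Of the 10 leukocyte markers, Ptprc, Adgre1, Itgam, Cd3e and Tyrobp were among those with none in any library. The summed scaled depth of that list ranged from 564 to 775 in CON and from 465 to 493 in TM. Most of it came from Cd14, which had 15 to 26 listed sites in every library. The scaled depth of Cd14 was 528 and 747 in CON and 445 and 458 in TM. Cd68, Lyz2 and Csf1r had listed sites in some libraries. The summed scaled depth of 10 fibroblast and smooth muscle markers was 578 and 906 in CON and 205 and 319 in TM, and that of 8 epithelial markers was 3.76 and 14.6 in CON and 0 and 5.31 in TM. The endothelial list was lower in TM as well, at 15707 and 17247 against 18162 and 22772 in CON. All 10 fitted depth differences were negative (median -0.54 on the log2 scale). By limma 0 were called, against 11.9% of all 6836 genes tested. At an unadjusted p under 0.05 there were 5, against 1679 of the 6836. With the mouse as a block 5 were called, against 20.5% of all genes under that fit. The part of these lists in the chemokine values was not tested.

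Cxcl10 was the member called in the counts, and its exonic sites were listed in TM libraries only. The gene (chr5:92346638-92348889 on mm10, minus strand, protein coding) had counts of 0 and 0 in CON and of 11 and 19 in TM. Both TM libraries lay above both CON libraries. In CPM, the counts scaled by library size after TMM normalisation, the TM mean was 10.4 ± 0.604 (SD, n = 2), which is at least 4.00-fold higher than the mean CPM that 3 counts would give in each CON library. The edgeR quasi-likelihood test gave a log2 fold change of 6.74 ± 1.43 (SE, adjusted p = 0.00192), whose size depends on the prior count because CON held no reads, and DESeq2 gave 5.97 (adjusted p = 0.0499). Cxcl10 was 1 of 3 members tested in the counts and the only one called, against 7.75% of all 7899 tested genes called in either direction and 4.39% called higher. It passed the filter on low counts through its TM libraries alone, so it had to lie higher in TM to be tested. Its call is no support for the members as a set. Leaving out EC1 CON, EC1 TM or EC2 CON ended this call (adjusted p = 0.101, 0.112 and 0.0856 by edgeR), and without EC2 TM the gene fell under the filter on low counts.

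Along the Cxcl10 transcript, 26 exonic and UTR sites were listed in EC1 TM and 21 in EC2 TM, and none in either CON library. Their depth ran from 452 to 2523 reads, with a median of 1295, in EC1 TM, and from 1176 to 3336, with a median of 1983, in EC2 TM. After scaling the 2 mice were close, at 983 and 956 (970 ± 18.5, SD, n = 2). In TM cells a listed Cxcl10 base was thus covered by 1295 or 1983 reads in the median while the count table held 11 and 19 reads for the whole gene. Each TM library also had 1 intronic site, at 12 and 57 reads, far below the exons. A stretch of 133 bases, 5.91% of the exonic bases of Cxcl10, is shared with Art3 on the opposite strand, whose counts of 8 and 3 in CON and 8 and 5 in TM did not separate the groups.

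Ccl5 showed the same contrast between the readouts. The gene (chr11:83525778-83530518, minus strand) had counts of 6 and 4 in CON and of 11 and 13 in TM. In CPM these were 5.34 and 3.65 in CON and 9.95 and 7.39 in TM, 1.86-fold higher in TM in the first mouse and 2.03-fold in the second. The groups did not overlap, which with TM higher held for 25.3% of the genes tested in the counts. The counts of Ccl5 were under the filter of the edgeR test, and without that filter the log2 fold change was 0.94 ± 0.77 (SE, adjusted p = 0.758 by edgeR). At the listed sites the groups lay much further apart. EC1 CON had 1 exonic site with a depth of 9 and EC2 CON had none, whereas EC1 TM had 10 sites with a median of 925 reads (628 to 1496) and EC2 TM had 8 sites with a median of 2153 (1426 to 3607). Scaled depth was 6.76 in EC1 CON against 701 in EC1 TM, a ratio of 104 that rests on the single site of EC1 CON (chr11:83526048, in an exon), and was 1038 in EC2 TM. Introns of Ccl5 were covered thinly in TM, with a median of 33 reads over 9 sites in EC2 TM and 12 reads at 1 site in EC1 TM.

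With fewer than 3 listed sites in a CON library, Cxcl10 and Ccl5 were outside the depth test. An alternative chosen after seeing the data, which summed the depth over sites and set unlisted sites to 0, called 2 members, Cxcl10 and Ccl5, against 1.22% of all 14389 genes. Because a position without an entry is not a depth of 0, these calls follow from the missing listing in CON and support nothing further.

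The remaining interferon-driven members were near the limit of detection. Cxcl9 (chr5:92321347-92328079, minus strand), 18558 bases from Cxcl10, had a count of 3 in EC2 TM, 0 in the other libraries, and no listed site of any kind. Cxcl11 (chr5:92359544-92365485, minus strand), on the other side of Cxcl10 at 10654 bases, is annotated as a polymorphic pseudogene. It had a count of 2 in EC1 TM and 0 elsewhere. Its listed sites, 1 in EC1 TM (11 reads) and 2 in EC2 TM (median 16.5), both gave a scaled depth near 8 (8.35 and 7.96), and CON had none. Exonic bases shared with Gm2673 on the opposite strand make up 41.7% of Cxcl11. At this depth a difference in Cxcl9 or Cxcl11 was not detectable, and 3 counts correspond to 1.69 to 2.74 CPM in these libraries. These limits, like all counting intervals here, cover counting error only.

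**Figure D1:**
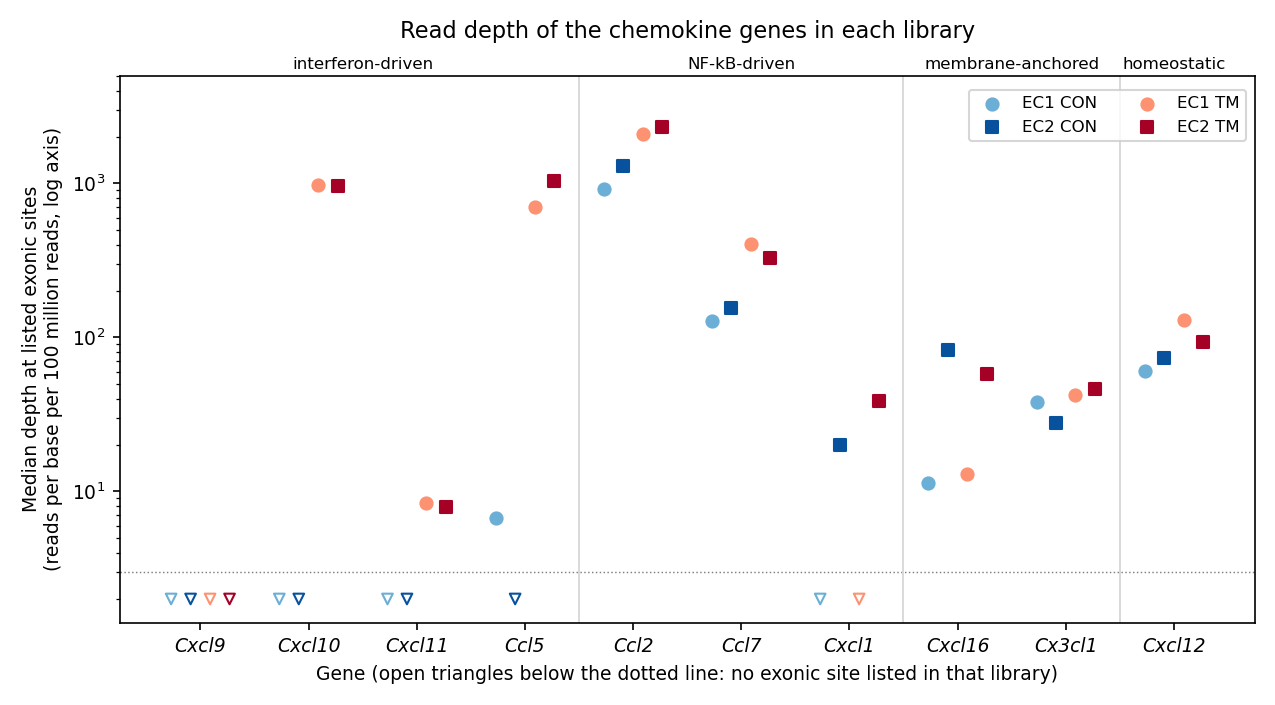
Scaled depth (median reads per base over listed exonic and UTR sites, per 100000000 reads, log axis) of each chemokine gene in the 4 libraries, 1 point per library; open triangles mark libraries without a listed exonic site. Cxcl10 and Ccl5 stand between 701 and 1038 in the TM libraries with a single point, of Ccl5 at 6.76, in CON, and Ccl2 lies at 917 and 1297 already in CON and at 2087 and 2308 in TM.

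Ccl2, the monocyte chemoattractant, was the most deeply covered member in every library, and it was covered in CON cells as well. The gene (chr11:82035571-82037453, plus strand) had counts of 7 and 11 in CON and of 14 and 33 in TM, or 6.23 and 10.03 CPM against 12.7 and 18.8 CPM. The groups did not overlap, and the edgeR log2 fold change of 0.97 ± 0.57 did not pass (adjusted p = 0.359). Ccl2 and Cxcl10 were the 2 members of 3 tested whose CPM did not overlap with TM higher, against 25.3% of all tested genes.

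The depth of Ccl2 was measured at 22 to 29 listed sites per library. Median depth was 1220 and 1862 reads in CON and 2751 and 4784 in TM. Scaled, the values were 917 and 1297 in CON (1107 ± 269, SD, n = 2) and 2087 and 2308 in TM (2197 ± 156), so TM was 2.28-fold higher in the first mouse and 1.78-fold in the second. Limma gave a log2 difference of 1.01 ± 0.32 (SE, adjusted p = 0.0334). Ccl2 was the 1 member called of 4 tested in depth, against 11.9% of 6836 genes called in either direction and 6.41% called higher. At the 6 positions listed in both libraries of EC1 and the 4 of EC2, the fold was 2.21 and 1.87. Leaving out EC1 CON, EC1 TM or EC2 TM ended the call (adjusted p = 0.102, 0.414 and 0.509 by limma), and so did taking sites by position (0.122) or genes with at least 1 listed site in every library (0.0813).

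Relative to other genes, Ccl2 was among the deepest already without TM, with 4.41% and 3.91% of genes above it in EC1 CON and EC2 CON and 1.86% and 1.76% in the TM libraries. Cxcl10 and Ccl5 entered that range in TM only as far as listed sites show, with 4.20% and 6.22% of genes above them in EC1 TM and 4.47% and 4.12% in EC2 TM. Intronic sites of Ccl2 were shallow and moved differently in the 2 mice, from a median of 123 to 82 reads in EC1 and from 84 to 313 in EC2.

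Ccl7, which lies 8258 bases beyond Ccl2 on the same strand (chr11:82045712-82047525), followed Ccl2 in rank in CON. Its listed sites were few, 1 and 2 in CON and 3 and 4 in TM. Scaled depth was 127 and 154 in CON and 406 and 330 in TM, 3.20-fold and 2.14-fold higher in TM, and the groups did not overlap. The same held, with TM higher, for 27.2% of the genes tested in depth, which leave out Ccl7. Counts of 5 and 0 in CON and of 2 and 6 in TM overlapped, TM being the lower one in the first mouse. Ccl7 had too few sites and counts for either main test. With genes that had at least 1 listed site in every library, limma gave a log2 difference of 1.38 ± 0.26 (SE, adjusted p = 0.0128), and Ccl7 was then the 1 member called, against 6.42% of all genes under that rule.

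Cxcl1, the neutrophil chemokine (chr5:90891241-90893115, plus strand), had counts of 0 and 2 in CON and of 5 and 7 in TM. The groups did not overlap, at 0 to 1.82 CPM against 3.98 to 4.52 CPM, and the counts were too low for the test. Of the genes tested in the counts, 25.3% did not overlap with TM higher. No exonic site was listed in the first mouse. In the second, 2 sites in each library gave depths of 28.5 in CON and 80 in TM, a scaled ratio of 1.94.

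**Figure D2:**
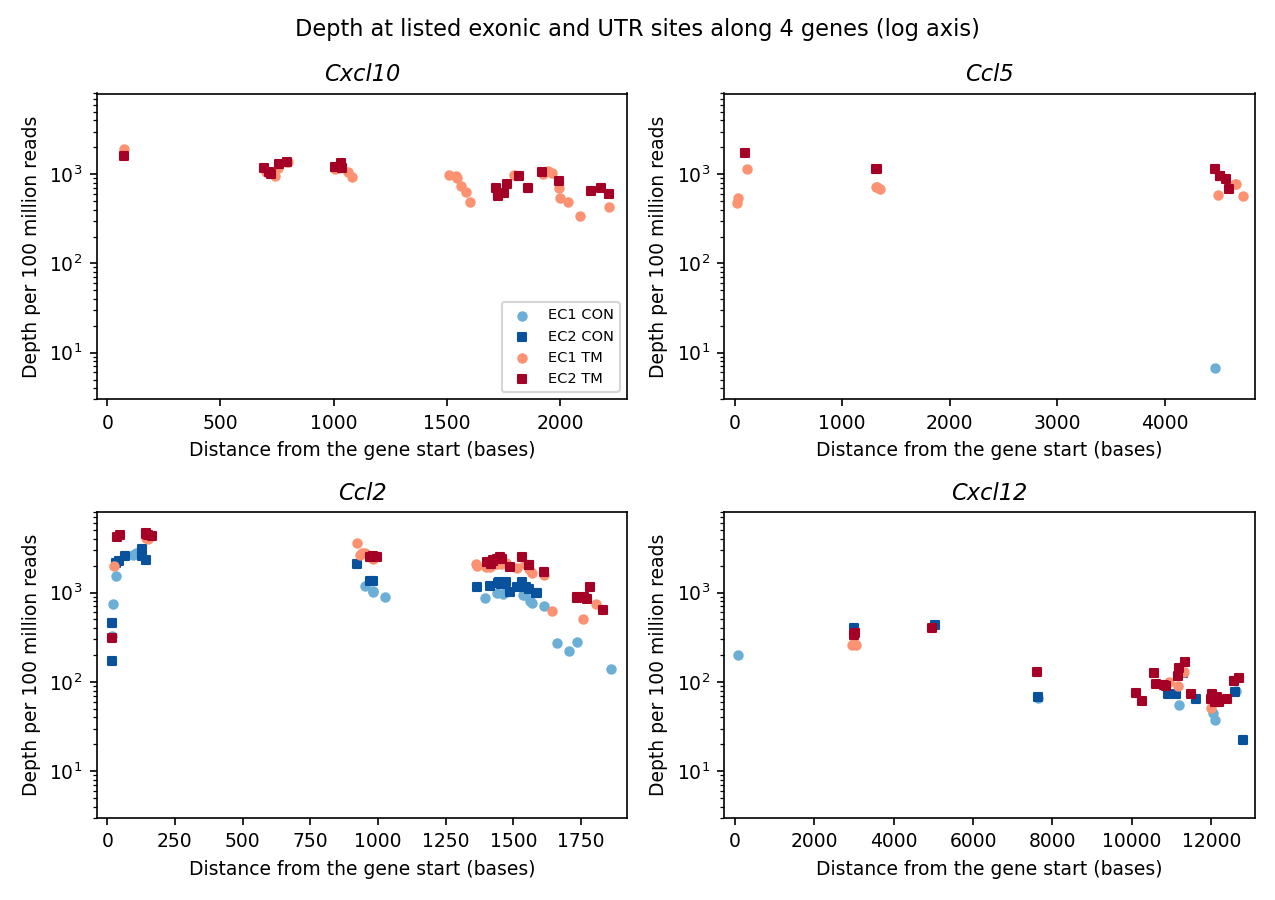
Scaled depth at each listed exonic and UTR site (log axis) against the distance from the gene start in bases, for Cxcl10, Ccl5, Ccl2 and Cxcl12, 1 point per site and library. Sites of Cxcl10 and Ccl5 in TM span the length of the transcripts, the only CON point of Ccl5 is at 6.76, and the TM points of Ccl2 lie above the CON points over the middle of the gene.

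The membrane-anchored pair was measured in both groups and neither member was called. Cxcl16 (chr11:70453983-70459984, minus strand), a ligand of CXCR6, had the most counts of all members, 60 and 78 in CON and 72 and 132 in TM. In CPM these were 53.4 and 71.1 against 65.1 and 75.1, so the groups overlapped, and edgeR gave a log2 fold change of 0.18 ± 0.33 (SE, adjusted p = 0.842). Its depth was low, at 15 and 118 reads in CON and 17 and 119 in TM over 3 sites in each library. The mice lay further apart than the treatments in these medians. Single sites ran from 11 to 94 reads in EC1 CON, so differences between positions and between libraries cannot be told apart. Limma gave a log2 difference of -0.17 ± 0.56 (SE, adjusted p = 0.901). Without EC1 CON it became -1.55 and was called (adjusted p = 0.0126 by limma), and it was 0.87 without EC1 TM and 1.22 without EC2 CON. A stretch of 552 exonic bases, 18.3% of all, is shared with Zmynd15 on the opposite strand, which had counts of 113 and 202 in CON and 181 and 330 in TM.

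Cx3cl1 (chr8:94772009-94782427, plus strand), the ligand of CX3CR1, had 0 to 2 counts per library and 4 to 6 listed sites. Scaled depth was 38.3 and 27.9 in CON and 42.1 and 46.5 in TM. TM lay above CON by 1.10-fold and 1.67-fold, and limma gave a log2 difference of 0.43 ± 0.31 (SE, adjusted p = 0.446).

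Cxcl12 (chr6:117168535-117181367, plus strand) had counts of 2 and 6 in CON and of 5 and 27 in TM, or 1.78 and 5.47 CPM against 4.52 and 15.4 CPM. The groups overlapped in CPM, TM being higher within each mouse. Scaled depth was 60.1 and 73.8 in CON, over 6 and 9 sites, and 131 and 93.1 in TM, over 7 and 22 sites, 2.17-fold and 1.26-fold higher in TM. Limma gave a log2 difference of 0.72 ± 0.29 (SE), which did not pass (adjusted p = 0.111), and taking the sites by position turned it to -0.17. Over the introns the direction was the opposite, with 0.658-fold and 0.593-fold the CON depth in TM over 4 to 16 sites. Ccl2, Cx3cl1 and Cxcl12 were the 3 of 4 tested members whose scaled depth did not overlap with TM higher, against 27.2% of all genes tested.

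**Figure D3:**
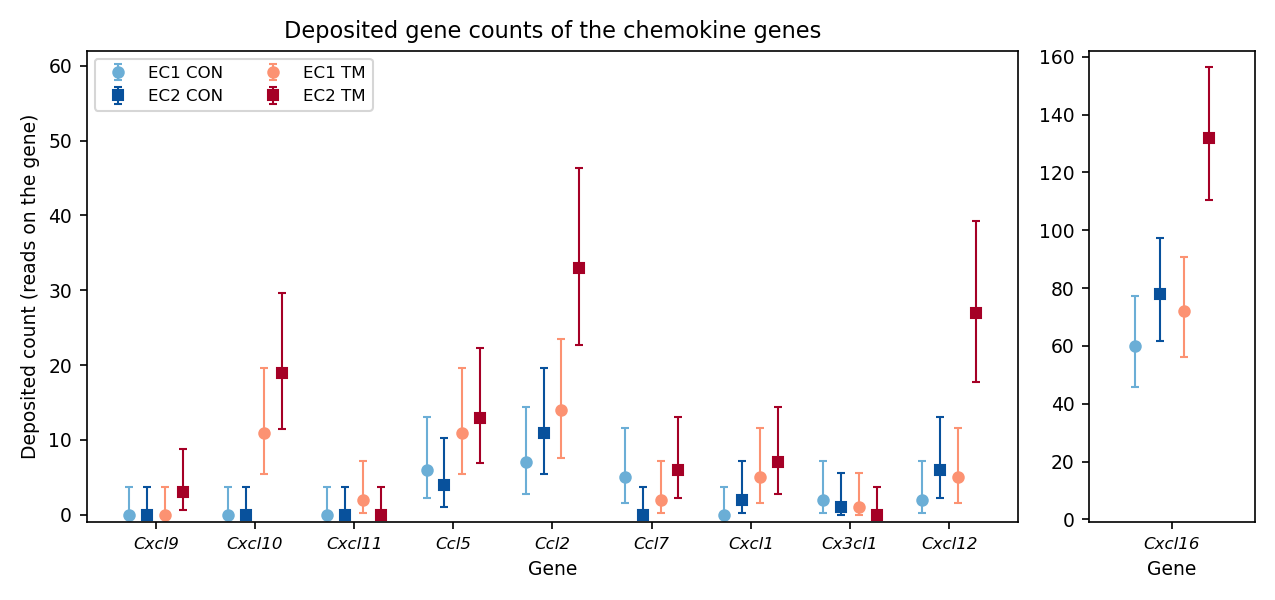
Deposited counts of the chemokine genes in each library with exact 95% Poisson intervals, which cover counting error only; libraries differ in size, EC2 TM being the largest with 1778732 counts on genes, and Cxcl16 has an axis of its own. Cxcl10 stands at 0 in both CON libraries and at 11 and 19 in TM, while the intervals of the other members overlap between groups within at least 1 mouse.

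Set in order of scaled depth, Ccl2 and Ccl7 led in both CON libraries. In TM the order was Ccl2 (2087 and 2308), then Cxcl10 and Ccl5, which changed places between the mice (983 and 701 in EC1 TM, 956 and 1038 in EC2 TM), then Ccl7 (406 and 330) and Cxcl12 (131 and 93.1). Neighbours below Cxcl12 could not be ordered beyond the spread between mice. Summed over the class, interferon-driven members went from 6.76 and no listed site in CON to 1692 and 2003 in TM, and NF-kB-driven members from 1044 and 1471 to 2493 and 2676. The difference between the classes was not tested, the interferon-driven members having a single listed exonic site in CON, that of Ccl5 in EC1.

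The genes that share these inducers gave the setting. Of 18 interferon-response factors and targets, 15 rose in the counts, against 4.39% of all genes called higher (median log2 fold change 3.94 over the 18, against 0.0017 over all genes) and all 12 tested rose in depth, against 6.41% (median 4.33, against 0.01 over all genes). Mx2, an antiviral GTPase, had counts of 0 and 0 in CON and of 43 and 46 in TM (fitted log2 fold change 8.36). Cd274, which encodes the checkpoint ligand PD-L1, had 0 and 0 in CON and 34 and 39 in TM (8.06). Both passed the filter through TM alone, and the size of these fitted values depends on the prior count. Others of the list passed it the same way, Rsad2 (counts of 3 and 6 in CON) and Ifit3 (1 and 0) among them. Such genes had to lie higher in TM to be tested, so the 15 and the 4.39% are not like for like. Without the filter 15 were called as well, against 636 of all 17237 genes in either direction. With at least 10 counts in every library, where fewer genes could be tested, 2 were called. Rsad2 and Ifit3, antiviral effectors, rose by 5.52 and 6.79 in the counts and by 7.12 and 6.48 in depth, and Ifit1 by 4.22 and 5.02. Usp18, a brake on interferon signalling, stood apart between the readouts, with -0.38 in the counts (adjusted p = 0.685 by edgeR) and 5.27 in depth (adjusted p = 2.71e-14 by limma).

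Of 18 NF-kB subunits and targets, 1 of 8 tested rose in the counts, against 4.39% of all genes (median log2 fold change 0.53, against 0.0017), and 3 of 10 in depth, against 6.41% (median 0.48, against 0.01). Nfkb2, Tnfaip3 and Birc3 had sites in every library but fewer than 3 in a CON library, so the depth test left them out. Their scaled depth was higher in TM in both mice. The call in the counts was Nfkbia, the inhibitor of NF-kB, at 2.56 (adjusted p = 0.0226 by edgeR), with 0.17 in depth (adjusted p = 0.777 by limma). Its counts were 1 and 5 in CON and 13 and 36 in TM. Nfkbia thus passed the filter on low counts through TM alone and had to lie higher in TM to be tested, so its call is no support for the list. The calls in depth were Ptgs2, the inducible cyclooxygenase, at 1.94 (adjusted p = 5.51e-06 by limma), and the leukocyte adhesion molecules Vcam1 at 1.43 (0.000854) and Icam1 at 0.93 (0.0275). With the mouse as a block, 5 of the 10 were called in depth, against 20.5% of all genes under that fit. The log2 difference of Ccl2 lay close to that of Icam1. Icam1 lost its call without EC1 CON, EC1 TM or EC2 TM, and Nfkbia without EC1 CON or EC2 TM.

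**Figure D4:**
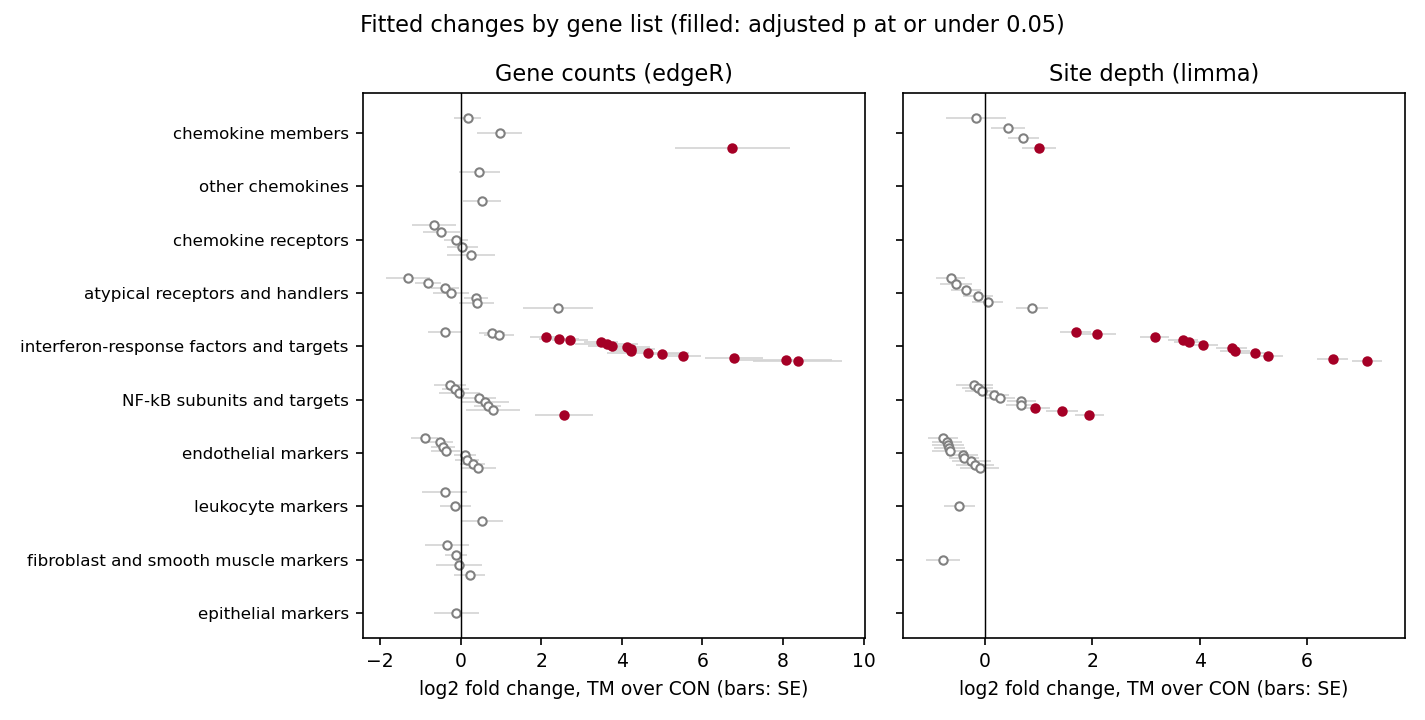
Fitted log2 fold changes, TM over CON, with SE, for genes of each list that could be tested in the counts (left) and in depth (right), 1 point per gene, filled where the adjusted p was at or under 0.05. Interferon-response genes reach 8.36 in the counts and 7.12 in depth, Cxcl10 at 6.74 is the filled chemokine on the left, and Ccl2 at 1.01 is the filled one on the right.

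In the rest of the chemokine system no gene was called in the main fits, and many could not be tested. Of 28 other chemokines, 2 (Ccl25 and Ccl27a) had enough counts to test, none enough sites, and 0 were called by edgeR or DESeq2, with 0 at an unadjusted p under 0.05 in both. Of 18 chemokine receptors, 5 were tested in the counts and 0 called by edgeR or DESeq2, again with 0 at an unadjusted p under 0.05. None of the 18 had enough sites for the depth test. Among the members' own receptors, Cxcr3 had 1 to 5 counts per library, Cxcr4 had 0, Cx3cr1 had 0 to 4, and Ccr2 had 0 in all 4. At listed exonic sites, Cxcr4 had 22 reads in EC1 CON and 12 in EC2 CON and no site in TM. Cx3cr1 had sites in TM only, with medians of 32.5 and 21 reads. Cxcr3 had 13 reads in EC1 TM and a median of 8 in EC2 CON, and Ccr2 had no site. Cxcr6 was counted more often (58 and 38 reads in CON, 63 and 59 reads in TM) and had no listed exonic site, with a log2 fold change of 0.05 ± 0.38 (SE, adjusted p = 0.963 by edgeR). Of 12 atypical receptors and chemokine handlers, 7 were tested in the counts and 6 in depth. By edgeR, DESeq2 or limma 0 were called, with 3, 1 and 2 at an unadjusted p under 0.05. Over all genes, 1621 of 7899 by edgeR and 1679 of 6836 by limma were under that p. With the mouse as a block, 2 were called in the counts, Ackr4 (lower in TM) and Ccrl2 (higher), against 15.0% of all genes. In depth 2 were called under that fit, Adam10 (lower) and Sdc4 (higher), against 20.5%.

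Among these, Ccrl2 was singled out after its values were seen. It encodes an atypical receptor that presents chemerin on activated endothelium. Its counts were 0 and 4 in CON and 11 and 18 in TM, and sites were listed in TM only, 5 with a median of 184 reads and 7 with a median of 234. The edgeR log2 fold change of 2.42 ± 0.87 did not pass (adjusted p = 0.0856), and Ccrl2 too met the filter on low counts through TM alone.

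Ackr3, the scavenging receptor of CXCL12, had a scaled depth of 125 in both CON libraries and of 107 and 156 in TM, a log2 difference of 0.05 ± 0.28 (SE, adjusted p = 0.947 by limma). Adam10 and Adam17, the proteases that release the ectodomains of CX3CL1 and CXCL16, gave log2 differences in depth of -0.54 ± 0.29 and -0.64 ± 0.28 (adjusted p = 0.258 and 0.145 by limma).

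Editing at the chemokine genes was at the floor. The table held 340 positions named for the members, of which 228 were exonic or UTR, 79 intronic and 33 in promoters, downstream or distal. Of all of them 30 lay in repeats, and none had reads in all 4 libraries. Of the 379 entries with reads, 330 had exactly 1 altered read. Under the limits used in the study (5 reads or more, 3 of them altered or more, a rate of 0.05 to 0.95), 0 of 47 and 0 of 66 member sites of that depth passed in CON and 0 of 97 and 0 of 132 in TM. Over all sites of the series 4.16% and 4.06% passed in CON and 3.44% and 3.60% in TM. A count of 0 allows shares of up to 6.38% and 4.55% in CON and 3.09% and 2.27% in TM, and sites of 1 transcript share reads.

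Within each mouse, a site differed if its rates in CON and TM lay at least 0.05 apart. The library with the higher rate also had to meet the study's limits on depth, altered reads and highest rate. By that rule 0 of 137 member sites in EC1 and 0 of 191 in EC2 differed, against 2.22% and 2.12% of the whole table. A count of 0 allows 2.19% and 1.57%. A library without an entry was scored as a rate of 0, which is not a measured rate. Most of these member sites lacked an entry in the other library, so the comparison cannot show that their editing was unchanged. By Fisher's exact test, 7 member sites per mouse were listed in both libraries, and 0 passed, with smallest two-sided p of 0.0826 and 0.448. Such a test compares 2 libraries, not the conditions.

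Over member sites of any region with a depth of at least 20, altered reads made up 0.160% and 0.121% in CON and 0.0914% and 0.0677% in TM. Exonic and UTR sites of all genes outside repeats, at the same depth, had 0.472% and 0.391% in CON and 0.470% and 0.400% in TM. The 2 sets of sites are unlike, since the member sites include introns, distal sites and repeats. A 3′ UTR site of Cxcl10 (chr5:92346675) had 2 altered of 569 reads (0.351%) in EC1 TM and 3 of 1234 (0.243%) in EC2 TM. Since every entry holds at least 1 altered read and most hold exactly 1, these shares fall as depth rises, and the lower values in TM are no measure of editing. The sites with every read altered were shallow and intronic: chr8:94773465 in Cx3cl1, with 1 of 1 read in EC2 CON and 5 of 5 in EC2 TM, and chr11:70456968 in Cxcl16, with 4 of 4 in EC1 TM, 1 of 1 in EC2 CON and 3 of 3 in EC2 TM.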

How the data were processed

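Total RNA of 4 libraries was depleted of ribosomal RNA and sequenced on a NovaSeq6000. Per the labels, Trimmomatic 0.38, STAR 2.6.1a and HTSeq 0.11.2 were used on mm10 (GRCm38). The authors deposited counts of reads per gene for each library, and for candidate editing sites the unaltered and altered reads and the editing rate as a fraction; the rate was checked to equal altered over all reads.

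The 5 summary rows of each count table were left out of library sizes. Counts were tested by the edgeR 4.0.16 quasi-likelihood test (filterByExpr, TMM) over 7899 genes, with DESeq2 1.42.0 as an alternative, and log2 (scaled depth + 1) by limma 3.58.1 over 6836 genes with at least 3 listed sites in every library, all with Benjamini-Hochberg adjustment and a threshold of 0.05, condition being the only term. Both groups came from the same animals, so the mouse as a block was an alternative; deviations of CON and TM of a mouse correlated at r = 0.155 in counts and 0.0998 in depth. With 1 library per mouse and group, p-values measure the spread among these libraries. Members, their classes and the lists were chosen with earlier results of these data known. Named list genes were those past the threshold, at most 6 per list with the largest change first, and genes whose exons overlap a member. Cell type markers, Adar, other chemokines, receptors and handlers, and untested NF-kB genes were named outside that rule. Positions came from GENCODE vM21. Each fit was tested on simulated data. Intervals on counts are exact 95% Poisson. The SE given with an edgeR log2 fold change is that change divided by the root of its F statistic, not an SE from the fit.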

Additional observations from a re-analysis of the deposited data

How the results depend on the processing

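The limits are the 2 libraries per group, the low counts and the listing of sites only where an altered read was seen. Among members, the 1 call in the counts (Cxcl10) became 0 under DESeq2 with the replicate block, where its adjusted p was not given, with at least 10 counts in every library, and in each leave-one-out fit (0 to 0). The 1 call in depth (Ccl2) became 0 with sites taken by position, ranged from 0 to 1 when a library was left out, and was 2 with unlisted sites as 0 (Cxcl10 and Ccl5, by the missing listing in CON, an alternative chosen after seeing the data). The 1 call without EC1 CON was Cxcl16, and the 1 call with at least 1 listed site in every library was Ccl7. The pathway lists had 16 calls in the counts and 3 with at least 10 counts in every library, and the interferon list 15 and 2. In depth the interferon list had 12 calls, 3 with at least 10 listed sites and 2 with sites shared by the libraries of a mouse, where fewer genes were tested. The NF-kB list had 1 call in the counts and 0 under DESeq2 with and without the replicate block, with at least 10 counts, and 0 to 1 in leave-one-out fits. In depth it had 3, and 5 with the block, 0 with at least 10 sites, 1 by position, 1 with shared sites and 0 with unlisted sites as 0. With a library left out, the log2 change of Cxcl16 ranged from -0.032 (without EC1 CON) to 0.40 in counts and from -1.55 to 1.22 in depth (0.87 without EC1 TM, 1.22 without EC2 CON), and that of Nfkbia in depth from -0.054 (without EC2 TM) to 0.39. Cxcl12 turned to -0.17 in depth by position. The causes were not tested. Over all genes, 612 were called in the counts, against 1184 with the replicate block, 362 by DESeq2 and 401 by DESeq2 with the block. In depth 811 were called, against 1400 with the block, 539 with at least 10 sites, 330 by position, 375 and 392 without EC1 TM or EC2 TM, and 175 with unlisted sites as 0. Centring on the median over genes gave 570 higher and 869 lower in place of 438 and 373. Leaving out a library moved the median over genes to between -0.15 and 0.16. No other member call changed under the block.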
